A study of Oryctolagus cuniculus with 3 samples.

Results

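The genes described here code for enzymes of the tricarboxylic acid (TCA) cycle, of fatty acid oxidation and of glutamine, glutamate and aspartate use, followed through 3 stages of differentiation of rabbit corneal epithelial cells. They were taken by symbol from a list of 40 genes, and 39 of them had rows among the 20536 gene names of the deposited tables. CPT1A was not analysed here. All 39 reached 1 CPM (fragments of a gene relative to the size of its library) in at least 1 library, as did 12818 genes in all. RNA came from RCE1(5T5), an established rabbit corneal epithelial line that carries no gene alteration in its labels, harvested as non-differentiated cells (day 4), committed cells (day 6) and terminally differentiated cells (day 10). Each stage is represented by 1 library, so no difference has a replicate check, no test was run, and the stage cannot be told apart from the library or the time in culture. All 3 cultures shared one medium with fetal calf serum, insulin, transferrin, hydrocortisone, triiodothyronine, cholera toxin, adenine and epidermal growth factor, and all were started on mitomycin C-treated mouse 3T3 fibroblasts that were lifted off with EDTA before extraction.

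As background, pyruvate enters the mitochondrion and is turned into acetyl-CoA by the pyruvate dehydrogenase complex, and the TCA cycle oxidises that acetyl group while reducing NAD and FAD for the respiratory chain. Beta-oxidation shortens fatty acids and feeds acetyl-CoA into the same cycle, and glutamine enters it through glutamate and 2-oxoglutarate. The corneal epithelium is known for heavy use of glucose, with much of it ending as lactate.

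The libraries held 10171693, 12582706.4 and 10899578.3 estimated fragments on days 4, 6 and 10. Of the 6 corneal epithelial markers in the tables, the keratin KRT3 was at 149.6, 954.0 and 2018 CPM, and its partner KRT12 had no fragment on day 4 and 19.3 and 120.7 CPM afterwards. PAX6 and EHF also climbed at both steps, whereas KRT5 (15650, 23374 and 13552 CPM) and TP63 (55.8, 162 and 119.7 CPM) were highest on day 6, as was the summed list at 15919, 24720 and 16318 CPM. All 10 listed markers of fibroblasts or feeder cells had fragments in every library, and their summed level was 4904, 3149 and 1704 CPM; THY1 alone of the list climbed by day 10, at 19.6, 16.8 and 76.9 CPM. The 5 listed cell cycle genes summed to 1572, 1312 and 646 CPM. Both sums declined over the same stages as the falling genes described below, and their part in those falls was not tested. TYROBP and FCER1G (immune), PECAM1 (endothelium) and TYR and DCT (melanocyte) had no fragment in any library, but other members of these lists did. CD68 of the immune list climbed at 5.6, 25.0 and 68.0 CPM and PMEL of the melanocyte list at 1.47, 7.8 and 28.5 CPM, so that these lists summed to 7.07, 26.9 and 69.5 CPM and to 3.67, 9.04 and 31.3 CPM. The endothelial list summed to 4.31, 7.22 and 6.22 CPM. The part of these lists in the members' differences was not tested. In a bulk library, fewer cells of a type and less RNA per cell cannot be told apart.

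Levels of a gene across stages are given in CPM after scaling by trimmed mean of M values (TMM), and levels between genes are compared only per coding length, as TPM, the deposited measure that divides by length and library. Brackets give 95% counting intervals, which leave out the variation between cultures. Values given in a row of 3 belong to days 4, 6 and 10. The words rose and fell are kept for differences of at least 2-fold in log2(CPM + 1), and smaller ones are called higher or lower.

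The members were abundant and mostly shifted by less than 2-fold. Their median level was 73.4 TPM on day 4, 63.9 TPM on day 6 and 51.0 TPM on day 10, where the median of all measured genes was 12.9, 10.0 and 10.2 TPM. Their summed level was 4884, 5305 and 4132 CPM. Glutamate dehydrogenase GLUD1 was first in all 3 libraries per length, with 328.1, 339.8 and 217.3 TPM. Citrate synthase CS held ranks 3, 2 and 3. At the other end stood carnitine palmitoyltransferase CPT2, with 6.3, 5.6 and 3.1 TPM, last or next to last in each library. Malic enzyme ME1, with 6.5, 3.3 and 14.9 TPM, held ranks 38, 39 and 35.

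Between day 4 and day 6, 1 of the 39 members rose (2.56%, against 8.06% of all measured genes) and 0 fell (against 6.73%). At 1.5-fold, 6 members were higher (15.4%, against 19.6%) and 2 were lower (5.13%, against 18%). Those shares were below the background in both directions. With the deposited TPM, 1 of 39 members was higher and 11 of 39 were lower at 1.5-fold, where 10.5% and 32.1% of all measured genes were. The 6 that were higher were ECI1, ACADVL, HADH, ECHS1, ETFB and IDH3G, of which 5 act in fatty acid oxidation. These were 1 of 5 members for entry and dehydrogenases (20%), 3 of 5 of the later steps (60%) and 1 of 3 of electron transfer (33.3%). Of the 6 calls only that of ECI1 held in all 10 settings tried.

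Between day 6 and day 10, 1 member rose (2.56%, against 8.25%) and 2 fell (5.13%, against 7.1%). At 1.5-fold, however, 14 members were lower (35.9%, against 19.2%) and 1 was higher (2.56%, against 19.1%). The median difference of the members was -0.30 on the log2 scale, where that of all measured genes was -0.01, and 30 of 39 members lay below that median. This held at 30 of 39 with DESeq2 size factors, with total counts alone and with the deposited TPM.

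Across the whole interval from day 4 to day 10, 2 members rose (5.13%, against 17.1%), namely ME1 and ECI1. Another 4 fell (10.3%, against 15.8%), namely IDH3A, MDH2, ME2 and OGDH. With the deposited TPM, 1 of 39 rose and 11 of 39 fell, where 11.2% and 23.9% of all measured genes did. At 1.5-fold, 4 were higher (10.3%, against 29%) and 12 lower (30.8%, against 27.6%). Levels declined at both steps in 13 members, climbed at both in 7, were highest on day 6 in 17 and lowest on day 6 in 2. These shapes take any difference in CPM, however small, and were not counted over all genes. They also depend on the scaling: 24 members were higher on day 6 than on day 4 with TMM and 11 with TPM.

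**Figure D1:**
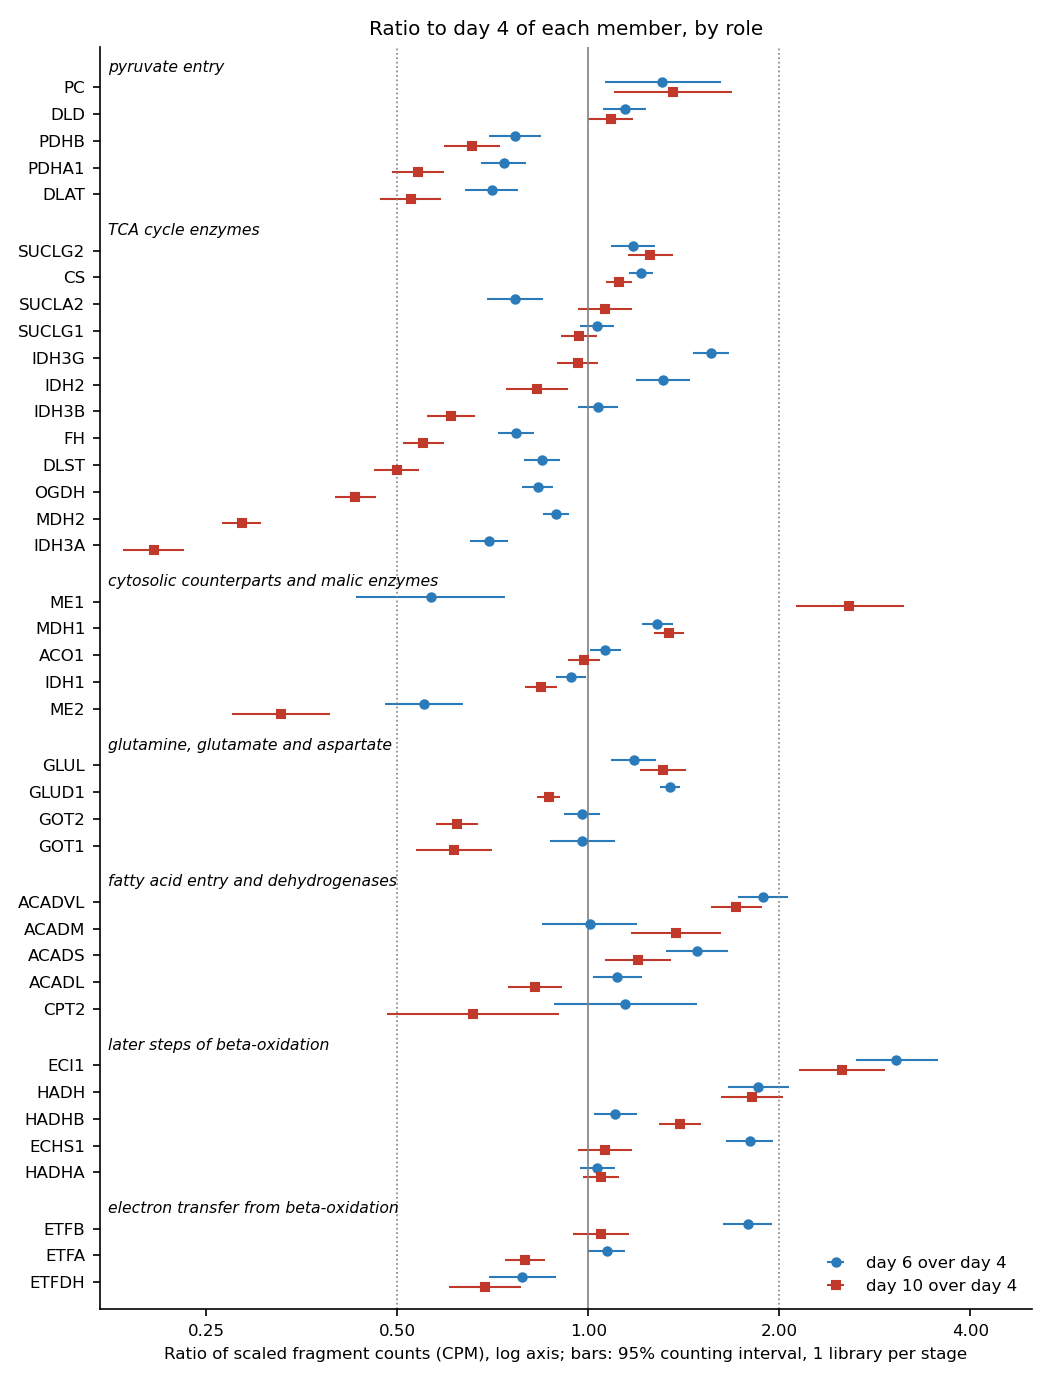
Ratio of TMM-scaled CPM to day 4 for the 39 members, grouped by role, on a log axis; circles are day 6, squares day 10, bars the 95% counting interval, and dotted lines mark 2-fold. IDH3A, MDH2, ME2 and OGDH sit left of the lower line on day 10, ME1 and ECI1 right of the upper one, and DLST on the lower line.

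Pyruvate entry was lower at its first and second enzymes and level at the third. PDHA1 codes for the catalytic alpha subunit of pyruvate dehydrogenase and was at 121, 89.0 and 65.2 CPM. By day 10 it was lower by 1.85-fold [1.69 to 2.04]. Its beta subunit PDHB went from 89.8 to 68.8 and 59.0 CPM, lower by 1.52-fold [1.38 to 1.69]. DLAT, the acetyltransferase core of the complex, was at 89.2, 62.9 and 46.8 CPM, lower by 1.91-fold [1.71 to 2.13]. These 3 genes declined at both steps, and none passed 2-fold, although PDHA1 and DLAT each did in 2 of the 10 settings tried.

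DLD, the dihydrolipoamide dehydrogenase that the pyruvate and 2-oxoglutarate dehydrogenase complexes share, was at 103, 118 and 112 CPM. Its ratio of day 10 to day 4 was 1.08 [0.999 to 1.18]. Within a library, where scaling plays no part, PDHA1 stood at 1.5, 0.958 and 0.759 times the TPM of DLD. DLAT stood at 0.733, 0.443 and 0.352 times that of DLD. The subunits of the complex did not keep one proportion through the 3 stages. Pyruvate carboxylase PC, which makes oxaloacetate from pyruvate, was at 14.1, 18.5 and 19.2 CPM. Per length it was low among the members, at rank 37 in each library, with 8.5, 9.2 and 9.2 TPM. The median of all measured genes was 12.9, 10.0 and 10.2 TPM.

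Further genes at this entry were read from a list of 11. Between day 4 and day 10, 2 of the 11 rose (18.2%, against 17.1% of all measured genes) and 1 fell (9.09%, against 15.8%), shares near or below those of all genes. The risers were PDK2 and PDK3, kinases that inactivate pyruvate dehydrogenase by phosphorylating it. PDK2 was at 3.03, 12.9 and 18.3 CPM, 6.03-fold higher [4.16 to 9.01] on day 10 than on day 4, and PDK3 was at 52.4, 74.7 and 131 CPM, 2.51-fold higher [2.27 to 2.77]. PDK1, the kinase known to respond to low oxygen, was at 54.1, 104 and 91.7 CPM. PDK4 stayed low, with 1.47, 2.82 and 2.83 CPM. The gene that fell was PDP2, a phosphatase that reverses the kinases, with 106, 56 and 14 fragments, or 9.73, 4.64 and 1.32 CPM. It was below the 10 CPM set for naming and was picked out after its values were seen. PDP1, the other phosphatase of the list and picked out likewise, was at 7.07, 8.87 and 8.19 CPM. Its ratio of day 10 to day 4 was 1.16 [0.843 to 1.60]. The carrier subunit MPC2, which brings pyruvate into mitochondria, was lowest on day 6, at 43.4, 28.2 and 70.4 CPM, and rose 2.50-fold [2.19 to 2.84] from day 6 to day 10. Its partner subunit MPC1, picked out after its values were seen, went the other way, at 30.4, 39.1 and 19.7 CPM, lower by 1.98-fold [1.68 to 2.35] in that step.

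In the TCA cycle proper most of the decline lay between day 6 and day 10. Of 12 members, 0 rose or fell between day 4 and day 6, with a median difference of -0.06. From day 6 to day 10, 2 fell (16.7%, against 7.1% of all measured genes) and 7 were lower by 1.5-fold or more (58.3%, against 19.2%), with a median of -0.67, and 10 of 12 lay below the median of all genes under TMM, DESeq2 size factors, total counts and TPM alike. Over the whole interval 3 of 12 fell (25%, against 15.8%) and 0 rose (against 17.1%), with a median of -0.49. The summed feeder markers and cell cycle genes given above were lower on day 10 too.

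IDH3A, the catalytic subunit of the NAD-dependent isocitrate dehydrogenase, had the largest fall of the 39 members. It was at 177, 124 and 36.6 CPM (1932, 1492 and 389 fragments). It fell 3.38-fold [3.02 to 3.79] between day 6 and day 10 and 4.84-fold [4.34 to 5.41] over the whole interval. Per length it went from sixth among the members to rank 30, with 169.1, 92.9 and 26.4 TPM.

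The other subunits of the same enzyme were also lower from day 6 to day 10, but by less than IDH3A. IDH3B was at 129, 133 and 78.4 CPM, and IDH3G at 137, 214 and 132 CPM. In that step IDH3B was lower by 1.70-fold [1.56 to 1.85] and IDH3G by 1.62-fold [1.52 to 1.73]. From day 4 to day 10 IDH3B was lower by 1.64-fold [1.51 to 1.79]. IDH3G was 1.56-fold higher [1.46 to 1.66] on day 6 than on day 4, a call that held in 8 of the 10 settings, and on day 10 its ratio to day 4 was 0.962 [0.893 to 1.04]. Both are regulatory or structural partners of IDH3A. On day 4 IDH3A was the most abundant of the set per length, and on day 10 it was the least. The TPM ratio of IDH3G to IDH3A was 0.662, 1.47 and 3.11, and that of IDH3B to IDH3A was 0.618, 0.904 and 1.84. The summed count of IDH3B on day 6, 1607.6 fragments, was not whole within 0.05 per coding sequence, so some of its fragments may be shared with another entry.

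The NADP-dependent isocitrate dehydrogenases did not fall in any comparison. Mitochondrial IDH2 was at 64.1, 84.2 and 53.3 CPM, lower by 1.58-fold [1.42 to 1.75] from day 6 to day 10. Cytosolic IDH1, a source of cytosolic NADPH, was at 235, 220.03 and 197 CPM. IDH1 exceeded IDH2 per length in every library, by 4.19, 2.96 and 4.05 times in TPM. In TPM, IDH3A was 3.77 times IDH2 on day 4 and 0.889 times on day 10.

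MDH2, the mitochondrial malate dehydrogenase that closes the cycle, had the next largest fall. Its level was 315, 280.2 and 89.5 CPM. It fell 3.13-fold [2.91 to 3.37] in the second step and 3.52-fold [3.27 to 3.78] in all. The cytosolic MDH1, which works in the malate-aspartate shuttle, was instead at 204, 262 and 274 CPM, 1.34-fold higher [1.27 to 1.42] on day 10 than on day 4. In deposited TPM it was nearly level, at 199.1, 202.9 and 209.4. The TPM ratio of MDH1 to MDH2 was 0.678, 0.995 and 3.22, so the order of the pair turned over, and the ratio on day 10 was 4.71 times [4.30 to 5.17] that on day 4. The MDH1 count of day 10, 2906.3 fragments, was not whole although the gene has 1 coding sequence, so some of its fragments may be shared with another entry.

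The 2-oxoglutarate dehydrogenase complex declined at its first and second enzymes, as pyruvate dehydrogenase did. OGDH, its first enzyme, was at 227, 189 and 97.5 CPM and fell 2.33-fold [2.16 to 2.51] between day 4 and day 10. DLST, its succinyltransferase core, was at 166, 140.5 and 82.9 CPM. It was lower by 2.01-fold [1.85 to 2.18] in CPM but missed the 2-fold call on log2(CPM + 1), at -0.995. It passed 2-fold in 5 of the 10 settings tried. Relative to the shared subunit DLD, the TPM ratio of OGDH was 1.2, 0.855 and 0.479, and that of DLST was 1.80, 1.31 and 0.812. Fumarase FH, which hydrates fumarate to malate, was at 183, 141 and 100.4 CPM, lower by 1.82-fold [1.69 to 1.96].

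Citrate synthase and succinyl-CoA ligase changed less. CS, which joins acetyl-CoA to oxaloacetate, was at 323, 391 and 361 CPM, and its ratio of day 10 to day 4 was 1.12 [1.07 to 1.17], although its deposited TPM declined, at 223.0, 210.3 and 190.6. SUCLG1, the ligase subunit common to both forms of the enzyme, was at 176, 182 and 171 CPM. Of the partners that set nucleotide use, the GDP-forming SUCLG2 was at 98.5, 116 and 123 CPM and the ADP-forming SUCLA2 at 74.3, 57.0 and 78.9 CPM. SUCLG2 exceeded SUCLA2 per length in all 3 libraries, by 1.40, 2.11 and 1.59 times. Set against CS within each library, IDH3A stood at 0.758, 0.442 and 0.139 times its TPM and MDH2 at 1.32, 0.970 and 0.342 times, whereas SUCLG1 stood at 0.733, 0.632 and 0.635 times.

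**Figure D2:**
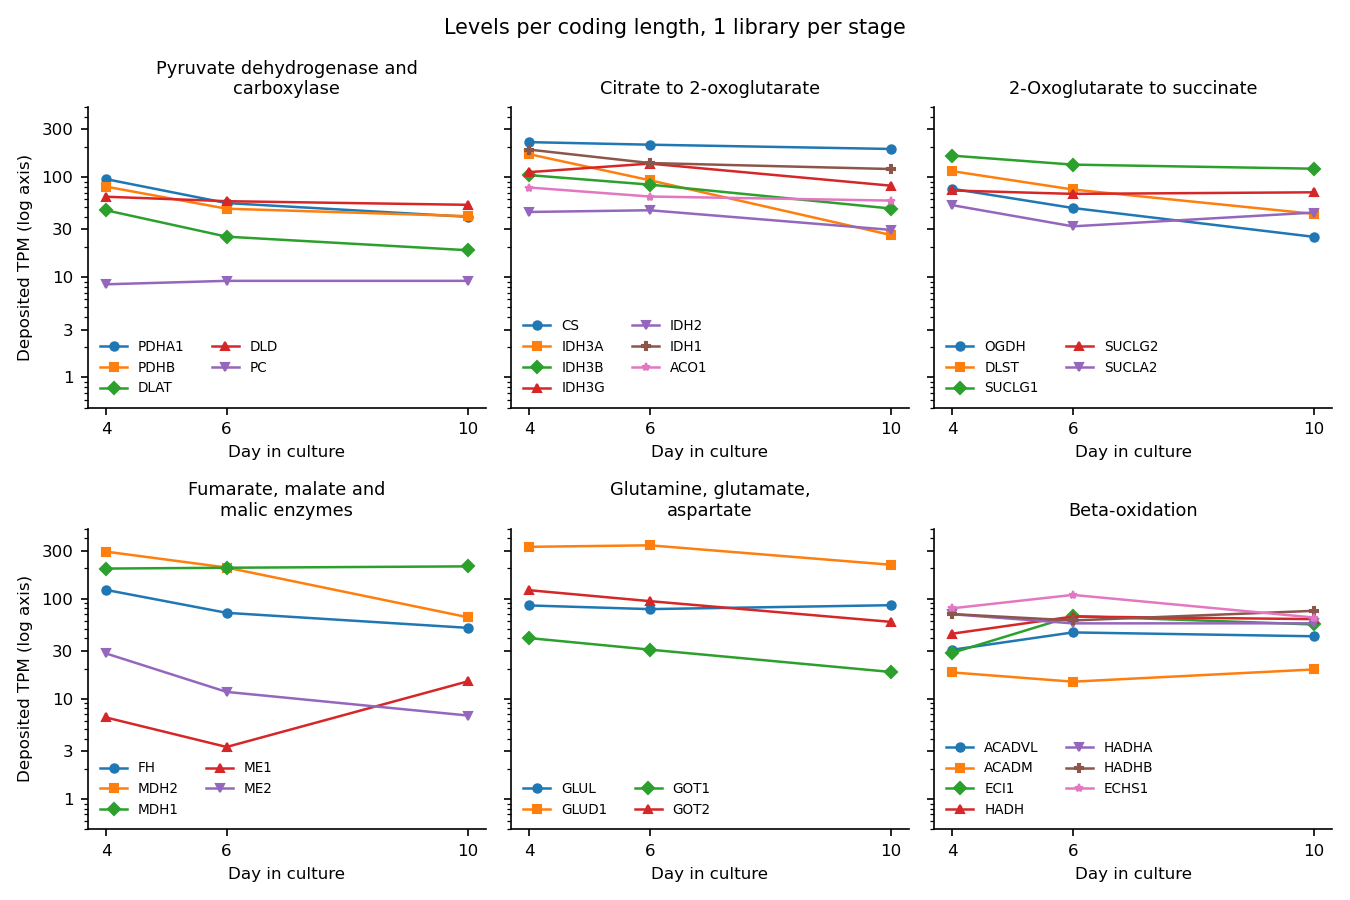
Deposited TPM on a log axis against day in culture for members of 6 groups, 1 library per point. IDH3A drops from 169.1 to 26.4 TPM and MDH2 from 293.8 to 65.1 TPM, while CS goes from 223.0 to 190.6 TPM, MDH1 from 199.1 to 209.4 TPM and ECI1 from 28.7 TPM on day 4 to 55.1 TPM on day 10.

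Among 15 further genes of the cycle and its carriers, 3 rose (20%, against 8.06% of all measured genes) and 0 fell (against 6.73%) between day 4 and day 6. Between day 6 and day 10, 0 rose (against 8.25%) and 2 fell (13.3%, against 7.1%). The succinate dehydrogenase subunits SDHA and SDHB were highest on day 6, at 315, 467 and 256 CPM and at 94.5, 137 and 80.8 CPM. ACLY, which splits exported citrate in the cytosol for lipid synthesis, was at 319, 343 and 152 CPM and fell 2.26-fold [2.13 to 2.40] after day 6. The 2-oxoglutarate carrier SLC25A11 fell 2.17-fold [1.95 to 2.42] in the same step, from 97.2 to 44.8 CPM.

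PCK2, the mitochondrial enzyme that makes phosphoenolpyruvate from oxaloacetate, rose 4.17-fold [3.85 to 4.52] between day 4 and day 6. It was at 68.6, 286 and 193 CPM. The citrate carrier SLC25A1 rose 2.06-fold [1.89 to 2.25] in that step, at 69.3, 143 and 99.2 CPM. In deposited TPM it missed 2-fold, at 86.9 on day 4 and 141.7 on day 6. SLC25A13, an aspartate-glutamate carrier of the malate-aspartate shuttle, declined from 69.5 to 50.3 and 31.3 CPM and fell 2.22-fold [1.95 to 2.54] by day 10. The third riser by day 6, PCK1, the cytosolic counterpart of PCK2, reached 9.21 CPM and was picked out after its values were seen.

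The malic enzymes moved in opposite directions after day 6. ME1, the cytosolic enzyme that yields NADPH, was at 13.5, 7.63 and 34.8 CPM (147, 92 and 369 fragments). It rose 4.55-fold [3.62 to 5.79] from day 6 to day 10, the only member to rise in that step. From day 4 to day 10 ME1 rose 2.58-fold [2.12 to 3.14]. ME2, the mitochondrial NAD-linked enzyme, was at 48.5, 26.7 and 15.9 CPM and fell 3.04-fold [2.56 to 3.64] between day 4 and day 10. On day 6 ME1 was lower than on day 4 by 1.77-fold [1.35 to 2.32] and ME2 by 1.81-fold [1.58 to 2.09]. They were the 2 members lower by at least 1.5-fold in that step. ME1 stood at 0.230, 0.282 and 2.19 times the TPM of ME2, so the pair exchanged order between day 6 and day 10. Cytosolic aconitase ACO1, which doubles as an iron-responsive RNA-binding protein, was at 211, 225 and 208 CPM.

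**Figure D3:**
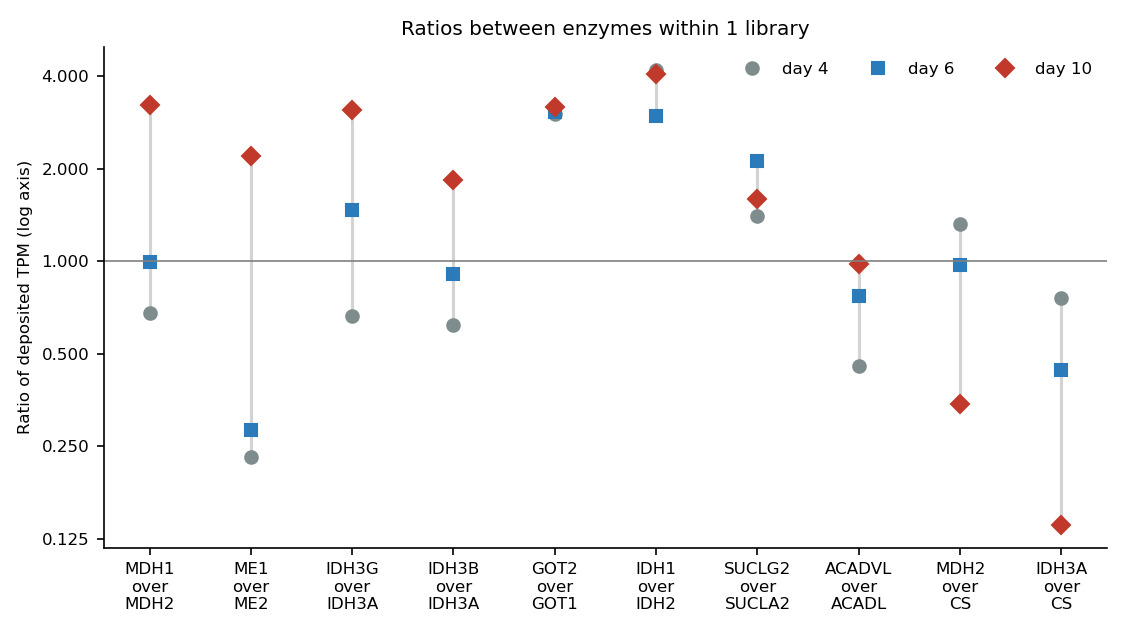
Ratio of deposited TPM between named enzymes within a library, on a log axis, with 1 marker per stage and the horizontal line at equal levels. MDH1 over MDH2, ME1 over ME2 and both IDH3 ratios cross that line between day 4 and day 10, whereas GOT2 over GOT1 lies at 3.00, 3.05 and 3.16.

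Among the 4 members of glutamine, glutamate and aspartate use, 0 rose or fell in any comparison, and 3 were lower by 1.5-fold or more from day 6 to day 10, where 19.2% of all measured genes were. GLUD1, which turns glutamate into 2-oxoglutarate, was at 459, 617 and 397 CPM and was lower by 1.55-fold [1.49 to 1.61] in that step. The aspartate aminotransferases moved in parallel. Cytosolic GOT1 was at 50.8, 49.8 and 31.3 CPM, and mitochondrial GOT2 at 163, 159 and 101 CPM. Each was lower in the second step, GOT1 by 1.59-fold [1.39 to 1.83] and GOT2 by 1.57-fold [1.46 to 1.70]. The GOT2 to GOT1 ratio on day 10 was 1.01 times [0.861 to 1.18] that on day 4. Glutamine synthetase GLUL, which runs the other way and makes glutamine, was at 94.5, 111 and 124 CPM, 1.31-fold higher [1.21 to 1.42] on day 10 than on day 4 but nearly level in TPM, at 85.3, 78.4 and 85.8.

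Of 14 measured further genes of glutamine uptake and use, 2 rose (14.3%, against 17.1% of all measured genes) and 6 fell (42.9%, against 15.8%) between day 4 and day 10, with a median difference of -0.96. The glutamine transporter SLC1A5 was at 67.3, 37.5 and 10.5 CPM and fell 6.43-fold [5.26 to 7.93]. The enzymes that take the amide nitrogen of glutamine for nucleotides also declined at each step: CAD, which starts pyrimidine synthesis, was at 252, 115 and 35.5 CPM, and PPAT, which starts purine synthesis, at 30.7, 10.8 and 5.65 CPM. CAD fell 7.09-fold [6.36 to 7.92] and PPAT 5.44-fold [4.12 to 7.29]. The sum of the cell cycle genes given above declined over the same stages.

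Asparagine synthetase ASNS was at 60.5, 96.9 and 26.8 CPM and fell 3.61-fold [3.17 to 4.12] after day 6. Also down after day 6 were ALDH18A1 of proline synthesis, by 2.62-fold [2.36 to 2.91], and the alanine aminotransferase GPT2, by 4.77-fold [3.07 to 7.71] from 10.8 to 2.26 CPM. The cystine-glutamate exchanger SLC7A11 was at 13.9, 11.2 and 6.22 CPM and fell 2.24-fold [1.67 to 3.04] from day 4 to day 10.

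PSAT1, the transaminase of serine synthesis that consumes glutamate, was the most abundant gene of this list on day 10, at 126, 423 and 711 CPM, and rose 5.62-fold [5.30 to 5.95] between day 4 and day 10. OAT, ornithine aminotransferase, was at 181, 291 and 390.3 CPM and rose 2.16-fold [2.04 to 2.28].

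In fatty acid oxidation the members differed in when they were highest. All 5 members for entry and the acyl-CoA dehydrogenases and all 5 of the later steps had higher CPM on day 6 than on day 4, a direction kept by 9 of the 10 with DESeq2 size factors, 6 with total counts and 5 with TPM. Against the median of all genes, all 10 stood above it with TMM and DESeq2 size factors, and 9 of 10 with total counts or with TPM. The median difference of the later steps was 0.84 and that of entry and dehydrogenases 0.18. From day 6 to day 10 these medians were -0.03 and -0.30.

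ECI1, an isomerase that prepares unsaturated fatty acids for beta-oxidation, was the 1 member that rose by day 6. It was at 21.4, 65.4 and 53.6 CPM (233, 788 and 569 fragments). It rose 3.06-fold [2.64 to 3.55] between day 4 and day 6 and was still 2.51-fold higher [2.15 to 2.93] on day 10. With the deposited TPM its difference between day 10 and day 4 was 0.92 on the log2 scale, just under 2-fold.

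The dehydrogenases of the first step differ in the chain length they take. ACADVL, for very long chains, was at 66.4, 125 and 113 CPM, 1.88-fold higher [1.72 to 2.06] on day 6 than on day 4. ACADL, for long chains, was at 84.7, 94.1 and 69.8 CPM. ACADM, for medium chains, was at 23.9, 24.0 and 32.8 CPM, and ACADS, for short chains, at 46.3, 68.6 and 55.4 CPM. On day 4 ACADL had the highest TPM of the set and ACADVL 0.454 times that. On day 10 the pair was nearly equal, at 0.979 times. ACADM was the lowest of the 4 per length in all 3 libraries. CPT2, which hands long chains to the matrix enzymes, was at 10.0, 11.4 and 6.59 CPM (109, 138 and 70 fragments).

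In the later steps, HADH, the short-chain hydroxyacyl-CoA dehydrogenase, was at 44.1, 81.5 and 79.8 CPM, 1.85-fold higher [1.66 to 2.07] on day 6 and 1.81-fold higher [1.62 to 2.03] on day 10 than on day 4. The short-chain hydratase ECHS1 was at 73.4, 132 and 78.1 CPM, 1.79-fold higher [1.65 to 1.96] on day 6 than on day 4, and this was not held on day 10. HADHA and HADHB, the subunits of the trifunctional protein for long chains, moved less. HADHA was at 168, 173 and 176 CPM and HADHB at 107, 118 and 149 CPM. Their TPM ratio was 0.996, 0.935 and 0.751.

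Electrons from the acyl-CoA dehydrogenases pass through the flavoprotein of ETFA and ETFB to ETFDH, which reduces ubiquinone. ETFB resembled ECHS1 in shape, with 68.8, 123 and 72.1 CPM, and was 1.78-fold higher [1.63 to 1.95] on day 6 than on day 4. Its partner ETFA was at 151, 161 and 119.9 CPM. ETFA and ETFB form one dimer, and their TPM ratio was 2.05, 1.24 and 1.53. ETFDH declined at both steps, from 53.0 to 41.7 and 36.4 CPM, lower by 1.46-fold [1.28 to 1.66]. The calls at 1.5-fold of ACADVL, HADH, ECHS1 and ETFB on day 6 each held in 9 of the 10 settings tried and missed with the deposited TPM.

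A list of 36 measured further genes of fatty acid handling, which also holds ketone and branched-chain enzymes, had 9 risers (25%, against 17.1% of all measured genes) and 3 that fell (8.33%, against 15.8%) between day 4 and day 10, with a median of 0.55 where all genes had 0.01. Of the risers, 5 had already risen by day 6 (13.9% of the 36, against 8.06% of all measured genes). 1 of these 5, EHHADH, held 1, 47 and 47 fragments and was picked out after its values were seen. CRAT, which forms acetylcarnitine from acetyl-CoA, was at 22.0, 69.0 and 62.2 CPM and rose 3.13-fold [2.71 to 3.63] by day 6. The peroxisomal thiolase ACAA1 was at 26.5, 79.0 and 79.5 CPM and rose 2.98-fold [2.61 to 3.41]. MLYCD, which removes the malonyl-CoA that blocks fatty acid entry, went from 28 to 149 and 125 fragments and rose 4.81-fold [3.20 to 7.48].

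Other genes of this list climbed at both steps. ACAD11, an acyl-CoA dehydrogenase, was at 7.34, 15.4 and 35.9 CPM and rose 4.89-fold [3.83 to 6.30] by day 10. Its relative ACAD10 rose 2.60-fold [2.03 to 3.35], from 8.44 to 21.9 CPM. ACAT1, the mitochondrial acetoacetyl-CoA thiolase, was at 61.8, 114 and 145 CPM and rose 2.35-fold [2.15 to 2.58]. DECR1, which like ECI1 serves unsaturated fatty acids, rose 2.10-fold [1.66 to 2.66] to 21.2 CPM, with a log2 difference of 1.0001, barely past the call. In deposited TPM, day 4 to day 10, ACAD10 went from 2.5 to 5.4, ACAT1 from 47.1 to 83.9 and DECR1 from 8.6 to 15.3. On log2(TPM + 1) none of these reached 2-fold.

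The 3 that fell by day 10 were ACAD9, HSD17B10 and OXCT1. ACAD9, a dehydrogenase relative that is also an assembly factor of respiratory complex I, was at 138, 63.7 and 25.5 CPM and fell 5.40-fold [4.75 to 6.17]. HSD17B10, a matrix dehydrogenase that also takes part in mitochondrial transfer RNA processing, was at 102, 99.9 and 27.2 CPM and fell 3.75-fold [3.29 to 4.28]. OXCT1, the enzyme that lets cells burn ketone bodies, was at 80.3, 79.1 and 33.4 CPM and fell 2.40-fold [2.12 to 2.72]. CPT1B, an entry enzyme best known from muscle, stayed between 2.66 and 4.99 CPM.

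**Figure D4:**
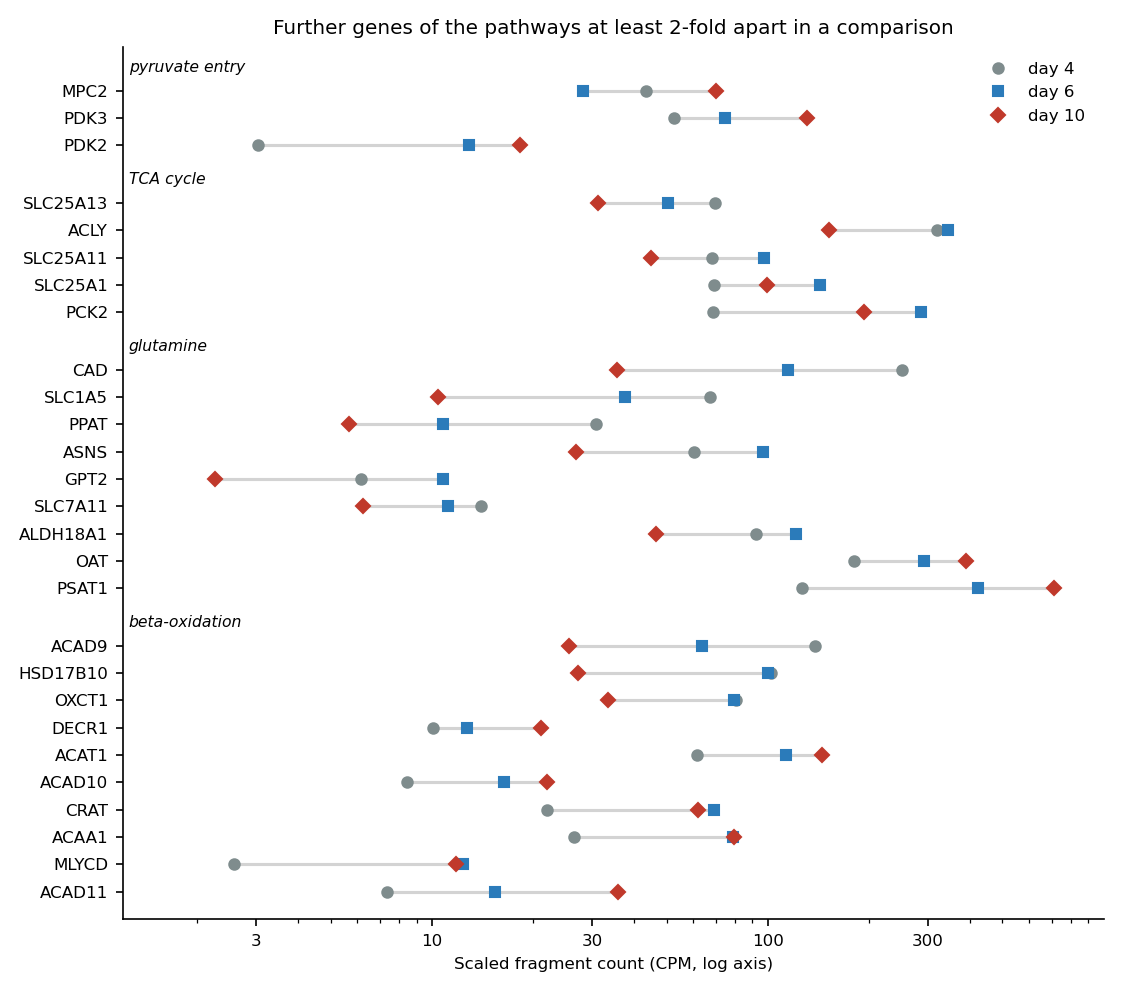
TMM-scaled CPM on a log axis for named further pathway genes that differed by 2-fold or more in a comparison and reached 10 CPM in one of its libraries, with 1 marker per stage. PSAT1 reaches 711 CPM on day 10, CAD, SLC1A5, PPAT and ACAD9 decline at each stage, and CRAT, ACAA1 and MLYCD have nearly their full rise by day 6.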

How the data were processed

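RNA was taken up in Trizol and sequenced after preparation with a TruSeq RNA kit, per the labels' protocols. The submitters' processing notes name OryCun2.0 as the build. Which aligner and counting program were used, whether strand was used, and how mouse feeder reads were handled were not given in the sources used here. Overlapping, antisense and near-identical genes may therefore share fragments. The deposited fragment and read tables hold estimated counts per coding sequence from the authors, per the file headers and the values, of which 44.9% to 46.5% were fractional for fragments. The deposited FPKM, RPKM and TPM values were normalized for length and depth by the authors, per the file headers, and so was a transcript coverage signal that the authors deposited and that no result uses.

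Fragments of the 38696 coding sequences were summed per gene name, rounded, and scaled with TMM factors of 1.071, 0.958 and 0.974 (edgeR 4.0.16, R 4.3.3). Ratios carry exact Clopper-Pearson 95% intervals of the fragments of both libraries, and changes of a ratio between genes were taken from fragments and carry exact conditional intervals (scipy 1.17.1). These cover counting error only, as PCR copies are not independent molecules. A pseudocount of 1 CPM understates the changes of low genes. The code was tested on simulated data. With 1 library per stage no test was run. A member was named with its values where it differed by at least 1.5-fold in a comparison, where it was highest or lowest per length in its role group, or as part of an isozyme set; further pathway genes where they differed by at least 2-fold with 10 CPM in the higher library, and SDHA, SDHB, PDK1, PDK4 and CPT1B always. ACO1, GLUL and SUCLG1 were named after their values were seen. Of 82 further pathway genes listed, 79 had rows and 76 were measured. The members and the lists were chosen with earlier results of these data known. Promoter and protein sequences were not used here. Some genes that this rule takes in are not reported here.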

Additional observations from a re-analysis of the deposited data

How the results depend on the processing

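No paired analysis was possible because each stage has 1 library, which also leaves no replicate to leave out. Of 117 differences (39 members in 3 comparisons), 13 changed sign with total counts alone and 21 with the deposited TPM, none of them of a member that rose or fell; with DESeq2 size factors and with the highest coding sequence 1 changed sign each. The median of all genes moved to -0.14 with total counts and -0.30 with TPM between day 4 and day 6, and to -0.11 and -0.31 between day 4 and day 10. The counts between day 6 and day 10 stayed within 1.5 times in all 9 alternatives. From day 4 to day 6, TPM gave 1 member lower by 2-fold (against 13.2% of all genes) and 1 higher by 1.5-fold (against 10.5%). Members lower by 1.5-fold were 5 with total counts, 11 with TPM and 1 with a pseudocount of 5. The shares of all genes lower by 1.5-fold were 24.2%, 32.1% and 11.8% in these settings. The members' median became -0.072 with total counts and -0.29 with TPM. Further genes that fell numbered 5, 7 and 5 with total counts, TPM and a pseudocount of 0.1. Of all genes, 9.49%, 13.2% and 9.32% fell in these settings. From day 4 to day 10, 7 members fell with total counts and 11 with TPM, against 19.0% and 23.9% of all genes. With TPM 1 member rose and 2 were higher by 1.5-fold, against 11.2% and 19.0%. Also with TPM, 9 further genes rose and 19 fell, against 11.2% and 23.9%. The members' median was -0.19 with total counts and -0.44 with TPM. Differences within a library, such as MDH1 over MDH2, do not use these scalings. The cause of these shifts was not tested. CPT2, with 70 to 138 fragments, had the widest counting interval among the members.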

Other observations

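Values for single coding sequences bear on whether a gene's course rests on 1 annotated form. Of the 39 members, 31 have 1 coding sequence in the tables and 8 have more. Both forms of IDH3A declined alike: one held 1121.5, 817 and 228.5 fragments on days 4, 6 and 10, and the other 810.5, 675 and 160.5. The 4 forms of OGDH stood between 18.5 and 19.5 TPM on day 4 and between 6.2 and 6.4 TPM on day 10. The 5 forms of IDH3G stood between 21.7 and 23.5 TPM on day 4, between 26.2 and 28.7 TPM on day 6 and between 15.6 and 18.2 TPM on day 10. For ACO1, IDH1 and HADHB the forms carried equal values in each library. The forms of a gene share fragments and are not separate measurements.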
